A study of Rattus norvegicus with 19 samples.

Results

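Bdh1, Bdh2, Oxct1, Acat1 and Slc16a1 code for 4 enzymes of ketone body metabolism and a transporter that carries ketone bodies, and they were listed by symbol for these roles. All 5 were among the 17455 genes in the count files, and all 5 passed the filter on low counts and were among the 12388 genes tested. RNA was sequenced from hearts of Sprague-Dawley rats, 24 weeks old on arrival, in 19 libraries of 7 groups. The labels name the heart, and the study describes the sequenced tissue as left ventricle. All libraries carry the labels male and wild type. The groups control 5w and control 9w (3 libraries each) received no L-NAME and were taken at weeks 5 and 9; the labels name no diet for them, and the study describes them as fed standard chow. The HFpEF group (3 libraries) modelled heart failure with preserved ejection fraction and was taken at week 5, after L-NAME, a blocker of nitric oxide synthesis, dosed through the water supply at 0.5 g/L, and a diet with 60% of its kilocalories from lard. Rats made in this way were then gavaged daily for 4 weeks with buffer (the untreated group, 3 libraries), with empagliflozin at 0.35 g/kg (EMPA, 2 libraries), with pirfenidone at 0.3 g/kg (PFD, 2 libraries) or with both at these doses (EMPA + PFD, 3 libraries), and were taken at week 9. The protocols give the induction only up to the start of treatment, while the study elsewhere speaks of induction over the whole course, so it is unclear whether L-NAME and the diet went on while the drugs were given.

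Ketone bodies are made mainly in liver mitochondria from acetyl-CoA when fatty acids are plentiful, and other organs burn them. Heart muscle takes up hydroxybutyrate and acetoacetate through monocarboxylate transporters, oxidises the former to acetoacetate, attaches coenzyme A taken from succinyl-CoA, and splits the product into acetyl-CoA for the citric acid cycle. Empagliflozin blocks the renal glucose transporter SGLT2, a drug class known to raise circulating ketones, and pirfenidone is an antifibrotic drug.

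Total counts per library ran from 7430539 (EMPA 1) to 13017754 (control 5w 2), with a median of 9951011. Counts per library ran from 55 to 479 for Bdh1, from 81 to 279 for Bdh2 and from 754 to 22698 over the other members, so counting error was small beside the spread between hearts. Counts of 3 genes outside the list set libraries apart in ways the labels do not give. Eif2s3y, on the Y chromosome, had 0 counts in 7 libraries (HFpEF 1 and 3, untreated 1 to 3, PFD 1 and 2) and 613 to 1321 in the other 12, although all are labelled male and the study states that the sequenced hearts came from males. RT1-CE16, of the major histocompatibility complex, had at most 3 counts in 8 libraries (control 5w, HFpEF and EMPA) and 308 to 922 in the other 11. Myl4, an atrial myosin light chain, stood at 1597 CPM (counts scaled to a common library size, after TMM normalization) in untreated 2, 1381 in control 9w 3 and 305 in control 9w 1, and at most at 33.8 in the other 16. Among the rats taken at week 9, the 5 libraries with EMPA all had Eif2s3y counts and the 5 without EMPA that had been given L-NAME had none, so the drug and this split cannot be told apart. In EMPA + PFD and control 9w both genes had counts in every library, at unequal levels (Eif2s3y 97.6, 108 and 104 CPM against 73.8, 75.4 and 73.9; RT1-CE16 50.4, 36.8 and 75.2 against 104, 101 and 91.0). PFD and untreated both lacked Eif2s3y counts and had RT1-CE16 counts.

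Heart muscle markers were present in every library, at unequal levels. The 9 of 10 cardiomyocyte markers found in the files summed to 65923, 26534 and 30580 CPM in control 5w, 10691, 24656 and 32059 in HFpEF, and 36107, 43493 and 38124 in control 9w. They summed to 66476, 21121 and 57202 CPM in untreated, 45722 and 34977 in EMPA, 58542 and 70433 in PFD, and 62404, 92736 and 75322 in EMPA + PFD. Untreated 2 and HFpEF 1 were thus the poorest in these markers, of which Myh6 had the highest mean CPM, not corrected for gene length (824 to 32560 CPM), and EMPA + PFD 2 was the richest. The 4 atrial markers, led by Nppa, which stressed ventricle also expresses, ran from 47.5 CPM in untreated 1 to 14839 in untreated 2 and 23214 in control 9w 3. The 7 fibroblast markers, led by Col3a1, summed to 44925 and 36430 CPM in control 5w 2 and 3 against 4475 in control 5w 1, and to 17177, 9598 and 12685 in HFpEF. Of the other lists, the 6 endothelial markers (led by Vwf) spanned 1203 to 3146 CPM, the 6 of smooth muscle and pericytes (Pdgfrb) 803 to 2953, the 6 of 7 leukocyte markers in the files (Lyz2) 212 to 2325, the 5 of adipocytes (Fabp4) 541 to 3653, and the 6 of erythroid cells (Hbb) 143 to 3969. No marker in the files was at 0 in every library. Fewer cells of a type and less RNA per cell cannot be told apart in these libraries, and the part of cell composition in the results was not tested.

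Slc16a1 codes for MCT1, a plasma membrane carrier of lactate, pyruvate and ketone bodies. It stood at 579, 505 and 523 CPM in control 5w, 148, 69.1 and 245 in HFpEF, and 165, 155 and 178 in control 9w. Every library of control 5w lay above every library of the other 2 groups, and HFpEF and control 9w overlapped. After the 4 weeks of gavage it was at 281, 71.1 and 209 CPM in untreated, 276 and 408 in EMPA, 424 and 340 in PFD, and 413, 793 and 609 in EMPA + PFD. The 3 EMPA + PFD libraries and both PFD libraries exceeded all untreated libraries, while EMPA 1 lay below untreated 1. Ordered by group mean (± SD), Slc16a1 went from EMPA + PFD (605 ± 190 CPM, n = 3) through control 5w (535 ± 38.6, n = 3), PFD (382 ± 59.9, n = 2), EMPA (342 ± 93.4, n = 2), untreated (187 ± 107, n = 3) and control 9w (166 ± 11.3, n = 3) to HFpEF (154 ± 88.0, n = 3). The sole neighbours in this order without overlap were control 5w and PFD.

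Bdh1 codes for the mitochondrial hydroxybutyrate dehydrogenase, which turns hydroxybutyrate into acetoacetate. Its levels were 36.6, 32.0 and 31.4 CPM in control 5w, 15.4, 15.04 and 33.1 in HFpEF, 28.0, 49.8 and 25.2 in control 9w, and 45.2, 4.47 and 50.5 in untreated. They were 13.6 and 20.6 CPM in EMPA, 45.6 and 42.0 in PFD, and 25.8, 55.1 and 30.6 in EMPA + PFD. Untreated 2 had the lowest Bdh1 level of the 19 libraries, and the 2 EMPA libraries lay below all libraries of PFD and EMPA + PFD. Its group means ran from 43.8 ± 2.54 CPM in PFD through EMPA + PFD (37.2 ± 15.7), control 9w (34.3 ± 13.5), untreated (33.4 ± 25.2), control 5w (33.3 ± 2.84) and HFpEF (21.2 ± 10.4) to EMPA (17.1 ± 5.00), with every pair of neighbours overlapping.

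Oxct1 codes for SCOT, the mitochondrial enzyme that moves coenzyme A from succinyl-CoA to acetoacetate and without which a tissue cannot burn ketone bodies. It stood at 2138, 1462 and 1542 CPM in control 5w, 433, 309 and 726 in HFpEF, and 513, 535 and 732 in control 9w. All control 5w libraries lay above all HFpEF and control 9w libraries. In the gavaged groups Oxct1 was at 1258, 262 and 1317 CPM in untreated, 569 and 753 in EMPA, 1358 and 1334 in PFD, and 1501, 1593 and 1407 in EMPA + PFD. Untreated was split, with replicate 2 below every other library of the series and replicates 1 and 3 close to PFD; the EMPA libraries lay inside that gap. The order of means was control 5w (1714 ± 370 CPM), EMPA + PFD (1500 ± 92.9), PFD (1346 ± 17.4), untreated (945 ± 593), EMPA (661 ± 130), control 9w (593 ± 120) and HFpEF (489 ± 214), and of these neighbours EMPA + PFD and PFD, and PFD and untreated, did not overlap.

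Acat1 codes for a mitochondrial acetoacetyl-CoA thiolase that splits acetoacetyl-CoA into acetyl-CoA and that can also run in the direction of ketone synthesis. Its levels were 762, 340 and 388 CPM in control 5w, 190, 270 and 418 in HFpEF, and 439, 417 and 483 in control 9w. The 3 groups overlapped, and control 5w 1 stood apart from the other control 5w libraries. Acat1 was at 932, 214 and 813 CPM in untreated, 749 and 546 in EMPA, 812 and 980 in PFD, and 1070, 1228 and 1105 in EMPA + PFD. The EMPA + PFD libraries were the 3 highest of the 19. Mean levels went from EMPA + PFD (1134 ± 83.3 CPM) through PFD (896 ± 119), untreated (653 ± 385), EMPA (647 ± 144), control 5w (496 ± 231) and control 9w (446 ± 33.4) to HFpEF (292 ± 116), and EMPA + PFD and PFD were the only neighbours without overlap.

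Bdh2 codes for a cytosolic dehydrogenase described to act on hydroxybutyrate. It was at 26.3, 12.7 and 13.8 CPM in control 5w, 9.11, 7.70 and 15.8 in HFpEF, 9.14, 12.5 and 11.9 in control 9w, and 19.6, 7.55 and 17.8 in untreated. It was at 18.5 and 12.8 CPM in EMPA, 21.9 and 14.1 in PFD, and 22.5, 24.1 and 17.6 in EMPA + PFD. Bdh2 varied least among the members, 3.48-fold from its lowest to its highest library, against 12.3-fold for Bdh1, 11.5-fold for Slc16a1, 8.17-fold for Oxct1 and 6.47-fold for Acat1. The order of group means was EMPA + PFD (21.4 ± 3.43 CPM), PFD (18.0 ± 5.53), control 5w (17.6 ± 7.53), EMPA (15.6 ± 4.07), untreated (14.99 ± 6.51), control 9w (11.2 ± 1.80) and HFpEF (10.9 ± 4.33), and all neighbours overlapped.

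**Figure D1:**
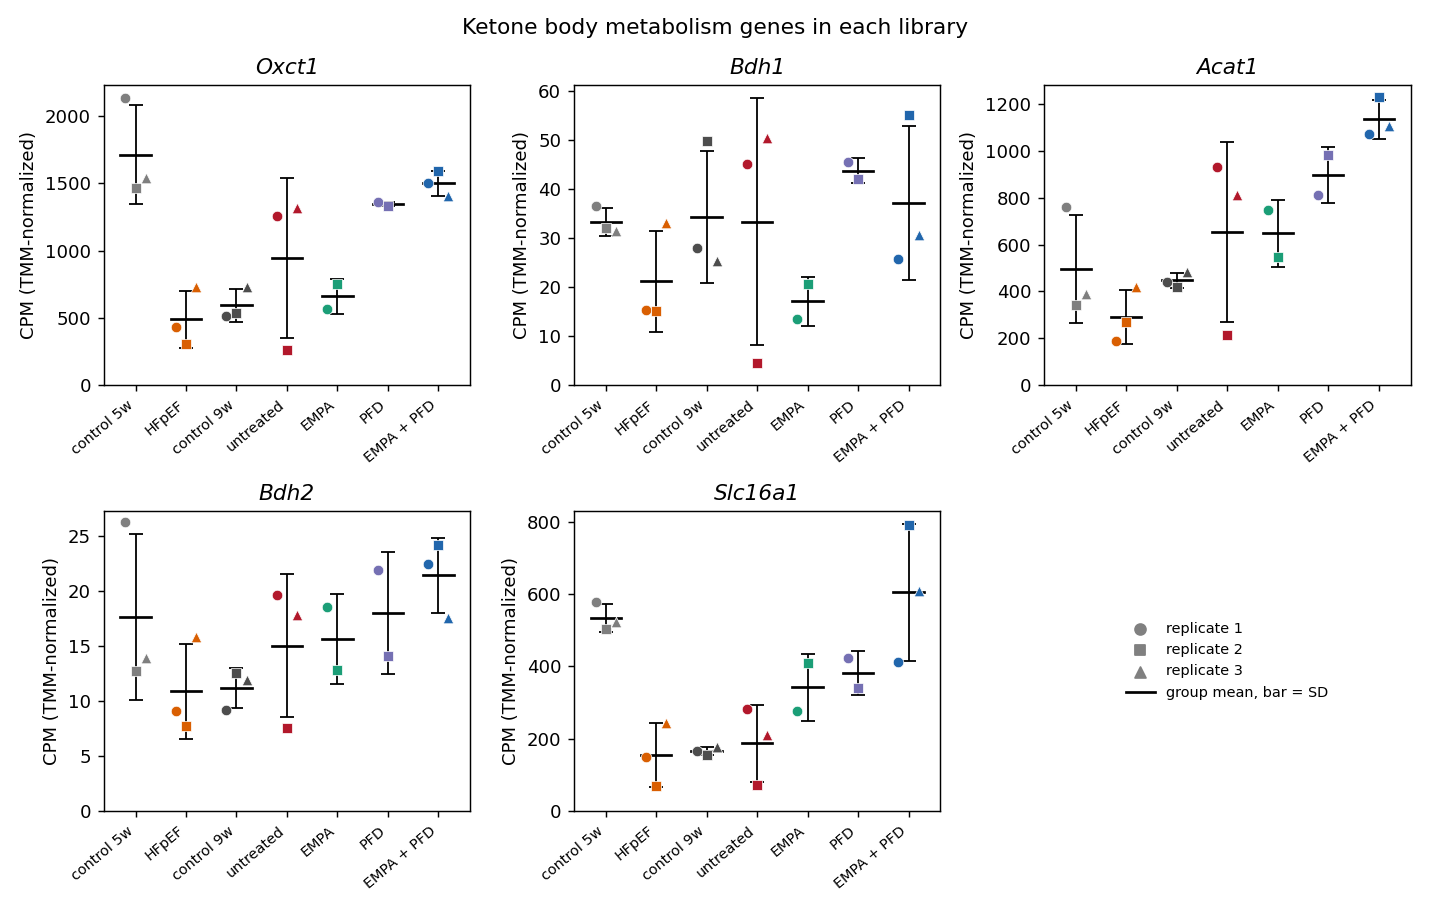
TMM-normalized CPM of each ketone body gene (y axis) in the 7 groups (x axis), with 1 point per library (circle, square and triangle for replicates 1, 2 and 3), a line at the group mean and a bar for the SD. Untreated 2 lies far below untreated 1 and 3 for Oxct1 (262 against 1258 and 1317 CPM), Acat1 and Bdh1, and the EMPA + PFD libraries lie above all untreated libraries for Oxct1, Acat1 and Slc16a1.

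Over the 7 groups together, Slc16a1, Oxct1 and Acat1 passed the test in edgeR and the dehydrogenases did not. In edgeR's quasi-likelihood test of any difference among the groups, 3 of the 5 members passed an adjusted p of 0.05 (Slc16a1 at 0.00781, Oxct1 at 0.0186, Acat1 at 0.0264), as did 6227 of all tested genes (50.3%). Adjusted p was 0.212 for Bdh2 and 0.534 for Bdh1. Slc16a1 and Oxct1 passed in every alternative run, while Acat1 did not without HFpEF 1, HFpEF 2, EMPA + PFD 2 or EMPA + PFD 3, or without HFpEF 1 and 3 together. Bdh2 passed with voom, where 11258 of all 12388 tested genes did so, against 6227 in edgeR. Bdh1 passed without untreated 2 (6904 of all genes) or without the 3 libraries high in Myl4. In the pairwise comparisons that follow, a gene is called when its adjusted p is under 0.05 and its change is at least 2-fold. Statements that all libraries of a group lay above or below those of another describe the members only. The share of all genes separated in this way was not counted.

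HFpEF and control 5w ask what the induction of the disease did by week 5. Slc16a1, at 148, 69.1 and 245 CPM in HFpEF against 579, 505 and 523, and Oxct1, at 433, 309 and 726 CPM against 2138, 1462 and 1542, both fell, and 3 of 3 HFpEF libraries lay below every control for each gene. Slc16a1 fell by 1.80 on the log2 scale (SE 0.450, 95% interval -2.75 to -0.84, adjusted p = 0.0148) and Oxct1 fell by 1.81 (SE 0.450, -2.77 to -0.85, adjusted p = 0.0144). For Acat1, Bdh2 and Bdh1, 2 of 3 HFpEF libraries lay below all controls, with log2 differences of -0.76, -0.69 and -0.65 that did not pass the test (adjusted p from 0.192 to 0.443). On leaving out 1 library Acat1 ran from -1.11 to -0.31, Bdh2 from -1.06 to -0.29 and Bdh1 from -1.13 to -0.46. With voom these 3 were at -0.07, -0.03 and -0.21. The edgeR test called 2 of the 5 members, beside 530 rises and 546 falls among all tested genes (8.69% called). With only the compared libraries in the fit, 460 of all genes were called, against 1076. The median log2 fold change was -0.76 over the members and 0.02 over all genes.

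Around the members, some enzymes of the citric acid cycle and of glycolysis fell in HFpEF. Of 17 citric acid cycle genes 6 fell (median -0.98; Cs -2.10, Ogdh -2.06), of 15 of glycolysis and lactate 5 fell (median -0.94; Eno3 -2.47, Hk2 -2.38), and 18 of 18 of fatty acid oxidation did not pass (median -0.78). Angptl4 was among the PPAR-alpha targets that rose (5.36), among 14 regulators Pparg rose (1.37) and 4 fell (median -0.46; Esrrb -3.05, Ppara -2.17), and of 8 tested monocarboxylate transport genes 1 fell, Slc16a1 (median -0.26). Cardiomyocyte marker sums overlapped between the groups, atrial ones were lower in HFpEF without overlap (2086, 272 and 1968 against 3284, 6124 and 4649 CPM), and their part in these differences was not tested. Oxct1 was not called without HFpEF 2 (-1.56, adjusted p = 0.0562, in a range of 0.000516 to 0.0562 over the alternatives), and Slc16a1 was not called with only these 6 libraries in the fit (-1.80, adjusted p = 0.0599, range 0.00067 to 0.0599). Without HFpEF 1 and 3, the libraries with no Eif2s3y counts, the values were -2.95 for Slc16a1 and -2.48 for Oxct1; HFpEF then held 1 library, whose spread was taken from the other groups.

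Slc16a1 and Oxct1 also differed between the controls of weeks 9 and 5. With no L-NAME in either group, Slc16a1 was at 165, 155 and 178 CPM at week 9 against 579, 505 and 523 at week 5, and Oxct1 at 513, 535 and 732 against 2138, 1462 and 1542, and 3 of 3 week 9 libraries lay below all of week 5 for each. Slc16a1 fell by 1.69 (SE 0.448, adjusted p = 0.0104) and Oxct1 fell by 1.53 (SE 0.446, adjusted p = 0.0166). Bdh2 also lay below all of week 5 in 3 of 3 libraries but did not pass (-0.65, adjusted p = 0.187), and Acat1 (-0.15) and Bdh1 (0.04) differed little in this fit. Acat1 was at 0.30 without control 5w 1 and at -0.78 without control 5w 2 and 3, and Bdh1 at -0.32 without control 9w 2 and at 0.58 without the libraries high in Myl4; voom turned both signs (0.21, -0.12). The test called 2 of the 5 members and 14.7% of all genes (924 rises, 893 falls), with medians of -0.65 and -0.04. This comparison and that of HFpEF share the control 5w libraries. Of the listed ketone genes Hmgcll1 rose (1.14) and Acat2 fell (-1.66) beside Oxct1, and of 8 of monocarboxylate transport Slc16a1 alone was called, downward (median -0.64). Of 17 citric acid cycle genes 4 fell (median -0.89; Ogdh -2.09, Cs -2.003), of 18 of fatty acid oxidation 2 (median -0.38; Hadh -1.82, Hadhb -1.44) and of 15 of glycolysis and lactate 6 (median -0.98; Hk2 -3.23, Tpi1 -1.30). Angptl4 (3.07) and Pdk4 (2.02) were among the PPAR-alpha targets that rose and Plin2 fell (-1.30), and of 14 regulators Pparg rose (1.79) and Esrrb (-1.89) and Esrrg (-1.08) fell (median -0.42). Markers of endothelial cells (2759 to 3146 CPM at week 9 against 1203 to 1461) and adipocytes (1345 to 3653 against 541 to 933) were higher without overlap and those of leukocytes lower (230 to 296 against 450 to 1813), and their part was not tested. Without control 9w 2, 1206 of all genes were called. Oxct1 was not called without control 9w 1 (-1.44, adjusted p = 0.0624) or 2 (-1.46, adjusted p = 0.0651), and without control 5w 2 and 3, the libraries richest in fibroblast markers, neither gene was called with the 1 control 5w library left (Slc16a1 -1.81, adjusted p = 0.0648; Oxct1 -1.86, adjusted p = 0.0557), where adjusted p ranged from 2.35e-06 to 0.0651 over the alternatives. The week and the RT1-CE16 split coincide here and cannot be told apart.

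Untreated and control 9w compare diseased and control hearts at week 9. No member was called: Oxct1 was at 1258, 262 and 1317 CPM in untreated against 513, 535 and 732, Acat1 at 932, 214 and 813 against 439, 417 and 483, and Slc16a1 at 281, 71.1 and 209 against 165, 155 and 178. For each of the 3 genes untreated 1 and 3 lay above all controls and untreated 2 below all of them. The log2 differences were 0.67 for Oxct1 (SE 0.438, adjusted p = 0.446), 0.55 for Acat1, 0.42 for Bdh2, 0.17 for Slc16a1 and -0.05 for Bdh1. The edgeR test called 0 of the 5 members and 0.912% of all genes (42 rises, 71 falls), and 0 members reached an unadjusted p of 0.05; DESeq2 called 0 members and 298 of all genes, and voom with quality weights called 1 member, Oxct1 (1.20, adjusted p = 0.000564). Without untreated 2, Oxct1 was called in edgeR too (1.12, adjusted p = 0.0317), in a range of 0.000564 to 0.942 over the alternatives, and leaving out 1 library changed the 113 calls among all genes to 21 and 7 (control 9w 1 and 2) and to 14, 413 and 28 (untreated 1, 2 and 3). Over the other alternatives they ran from 2 (Eif2s3y term) to 1037 (voom). With a term for the Eif2s3y split, which only the HFpEF group can estimate, the sign turned for Oxct1 (-0.24), Bdh2 (-0.27) and Slc16a1 (-1.34), none of them called. The sign of Slc16a1 also turned without untreated 1 (-0.25), and that of Bdh1 with voom (0.60) and without untreated 2 (0.48) or control 9w 2 (0.32). In the other lists Hk2, of glycolysis and lactate, was the 1 gene called (1.53). Markers of smooth muscle and pericytes (1196 to 1465 against 1010 to 1120 CPM) and of leukocytes (311 to 577 against 230 to 296) were higher in untreated and those of erythroid cells lower (186 to 306 against 1181 to 1833), and their part was not tested.

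The disease difference at week 9 was set against the disease difference at week 5 in a comparison added after the data were seen. Oxct1 had been lower in HFpEF than in control 5w by 1.81 and stood higher in untreated than in control 9w by 0.67, and the difference of these differences was 2.48 (SE 0.626, 95% interval 1.15 to 3.82, adjusted p = 0.0147). For Slc16a1 the difference was 1.97 (SE 0.624, 0.64 to 3.30, adjusted p = 0.0383), while Acat1 (1.31, adjusted p = 0.138), Bdh2 (1.11, adjusted p = 0.146) and Bdh1 (0.61) did not pass. The test called 2 of the 5 members and 12% of all genes, 1489, which became 877 without untreated 1, 975 without control 9w 2 and 2241 without untreated 2. As the controls of week 9 were themselves lower than those of week 5 in both genes, the difference holds changes of the controls as well as of the diseased hearts. Of the lists, 9 of 17 citric acid cycle genes (Cs 3.15, Ogdh 3.07), 8 of 15 of glycolysis and lactate (Hk2 3.91, Pfkm 2.51) and 4 of 18 of fatty acid oxidation (Hadh 3.61, Hadhb 3.01) were called, all upward. So were 2 of 8 of monocarboxylate transport (Slc16a1 and Bsg, 1.37) and 4 of 14 regulators (Esrrb 3.45, Esrrg 2.19), while Pparg (-1.82), Cpt1a (-1.23) and Angptl4 (-4.56) were called downward. Slc16a1 lost its call without any 1 of control 5w 1 to 3, HFpEF 1 and 2, control 9w 1 to 3 and untreated 1 and 3 (1.55 without untreated 1 to 2.02 without control 9w 3, adjusted p = 0.0539 to 0.119), and with the Eif2s3y term (1.62, adjusted p = 0.0704). Oxct1 was called in every alternative run, and without untreated 2 the call extended to Acat1 (1.73, adjusted p = 0.0103) and Bdh2 (1.43, adjusted p = 0.0325).

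EMPA + PFD and untreated compare hearts given both drugs with hearts given buffer. Slc16a1 rose: it was at 413, 793 and 609 CPM in EMPA + PFD against 281, 71.1 and 209 in untreated, and 3 of 3 treated libraries lay above all untreated ones. The rise was 1.69 on the log2 scale, or 3.23-fold (SE 0.448, 95% interval 0.74 to 2.65, adjusted p = 0.0295). Acat1, at 1070, 1228 and 1105 CPM against 932, 214 and 813, and Oxct1, at 1501, 1593 and 1407 against 1258, 262 and 1317, also had 3 of 3 treated libraries above all untreated ones. Their differences of 0.80 (SE 0.431, adjusted p = 0.209) and 0.67 (SE 0.438, adjusted p = 0.296) did not pass the test, nor did those of Bdh2 (0.52) and Bdh1 (0.16). The test called 1 of the 5 members beside 290 rises and 183 falls among all genes (3.82% called), with medians of 0.67 and -0.03. Upper quartile normalization moved the share of called genes that rose from 61.3% to 46.6%.

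Some PPAR-alpha targets and regulators rose beside Slc16a1. Of 8 tested genes of monocarboxylate transport, Slc16a1 was the 1 called (median -0.10). Among the PPAR-alpha targets that rose were Pdk4 (2.14), which holds back glucose oxidation, and Angptl4 (1.97). Of 18 genes of fatty acid oxidation 1 passed (median 1.17; Hadhb 1.73), of 17 of the citric acid cycle 2 (median 0.90; Ogdh 1.70, Cs 1.55) and of 15 of glycolysis and lactate 1 (median 0.53; Eno3 1.98). Among 14 regulators 4 rose (median 0.58), with Ppargc1a, a coactivator of mitochondrial genes, at 2.04 and Esrrb at 2.01. Of the 4 receptors listed for ketone bodies and short fatty acids, Hcar1 and Hcar2 were not in the files, and Ffar2 and Ffar3 were too low to be tested.

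The call of Slc16a1 depended on the libraries of both groups. It was lost without untreated 2 (1.30, adjusted p = 0.0996), untreated 3 (1.80, 0.0636), EMPA + PFD 2 (1.47, 0.120) or EMPA + PFD 3 (1.71, 0.0708), without the 3 libraries high in Myl4 (1.30, 0.146), and with only these 6 libraries in the fit (1.68, 0.116), in a range of 0.00225 to 0.146. Of all genes, 910, 83 and 210 were called without untreated 1, 2 or 3, and 793, 59 and 159 without EMPA + PFD 1, 2 or 3; with only these 6 libraries in the fit 5 were called, and without the libraries high in Myl4 33, against the 473 of the full fit. Without untreated 2 the differences of Oxct1 and Acat1 were 0.22 and 0.38, and that of Bdh1 turned to -0.36 (-0.22 without EMPA + PFD 2; -0.36 with voom or without the libraries high in Myl4). Untreated 2 was also the poorest of the 6 in cardiomyocyte markers and high in atrial ones. Markers of endothelial cells (1530 to 1740 against 2471 to 2914 CPM), smooth muscle and pericytes (803 to 948 against 1196 to 1465) and leukocytes (212 to 288 against 311 to 577) were lower in EMPA + PFD without overlap. The part of these marker differences in the result was not tested. The treated and untreated libraries differed throughout in Eif2s3y. With the term for that split Slc16a1 differed by 3.20 (adjusted p = 0.0392), Oxct1 by 1.58 and Acat1 by 0.97. Only HFpEF held libraries with and without Eif2s3y counts, so HFpEF 2 against HFpEF 1 and 3 set that term. For Slc16a1 these were at 69.1 against 148 and 245 CPM.

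EMPA and untreated ask what the SGLT2 inhibitor did alone, and no member was called. Slc16a1 was at 276 and 408 CPM in EMPA against 281, 71.1 and 209, so that 1 of 2 treated libraries lay above all untreated ones, and the difference was 0.87 (SE 0.482, 95% interval -0.16 to 1.90, adjusted p = 0.647). For Bdh1, Oxct1 and Acat1 the EMPA libraries lay between untreated 2 and the other untreated libraries. The differences were not called, with Bdh1 at -0.95 (-2.41 to 0.50, adjusted p = 0.763), Oxct1 at -0.52 (-1.57 to 0.54), Bdh2 at 0.06 and Acat1 at -0.01. Without untreated 2 they were -1.48 for Bdh1, -0.96 for Oxct1, -0.43 for Acat1, -0.26 for Bdh2 and 0.48 for Slc16a1, none of them called. EMPA libraries had 0 counts of RT1-CE16 where untreated had 583 to 684, and the drug coincides with both this split and that of Eif2s3y, so these cannot be told apart. With a term for Eif2s3y, which leaves the RT1-CE16 split in place, Slc16a1 was at 2.38 (adjusted p = 0.238), Bdh2 at 0.75, Oxct1 at 0.39, Acat1 at 0.16 and Bdh1 at -0.27, again none called. That term was again estimated from the HFpEF libraries alone. Erythroid markers were higher in EMPA (2310 and 446 against 186 to 306 CPM), and their part was not tested. The edgeR test called 0 of the 5 members and 0.0404% of all genes (2 rises, 3 falls); 0 members reached an unadjusted p of 0.05, and DESeq2 and voom called 0 members, with 51 and 24 of all genes. Without EMPA 2, HFpEF 2 or HFpEF 1, edgeR called 15, 11 or 9 of all genes. With 2 libraries against 3 the intervals were wide, and the lack of a call does not show that levels were alike. The median log2 fold change was -0.01 over the members, 0.01 over all genes, -0.17 over the citric acid cycle genes and 0.07 over those of fatty acid oxidation.

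No member was called where EMPA was added to PFD, that is for EMPA + PFD against PFD. Slc16a1 was at 413, 793 and 609 CPM against 424 and 340 (log2 difference 0.66, adjusted p = 0.689), and Oxct1 (1501, 1593 and 1407 against 1358 and 1334; 0.16) and Acat1 (1070, 1228 and 1105 against 812 and 980; 0.34) had 3 of 3 libraries above both PFD libraries by small margins. Bdh2 differed by 0.25 and Bdh1 by -0.24. With the Eif2s3y term the values were 2.17 for Slc16a1 (adjusted p = 0.204), 1.07 for Oxct1, 0.94 for Bdh2, 0.51 for Acat1 and 0.45 for Bdh1, none called. Here and for the average below, that term was estimated from the HFpEF libraries alone. Markers of endothelial cells (1530 to 1740 against 1971 and 2113 CPM), adipocytes (1184 to 1351 against 2131 and 1732) and erythroid cells (143 to 481 against 712 and 858) were lower with both drugs, and their part was not tested. The edgeR test called 0 of the 5 members and 0% of all genes; 0 members reached an unadjusted p of 0.05, and DESeq2 and voom called 0 members, with 47 and 109 of all genes. Without EMPA + PFD 1 or HFpEF 2, edgeR called 7 or 3 of all genes. The average of both EMPA comparisons, 5 libraries with the drug against 5 without, put Slc16a1 at 0.77 (SE 0.347, 95% interval 0.03 to 1.51, adjusted p = 0.488), Bdh1 at -0.60, Oxct1 at -0.18, and Acat1 and Bdh2 each at 0.16. Without untreated 2 it put Slc16a1 at 0.57, Bdh1 at -0.86, Oxct1 at -0.40, Acat1 at -0.05 and Bdh2 at -0.01. For that average edgeR called 0 of the 5 members and 0.0323% of all genes (0 rises, 4 falls; from 1 without EMPA 1 or 2 to 14 without EMPA + PFD 1), 1 member reached an unadjusted p of 0.05, Slc16a1, and DESeq2 and voom called 0 members, with 32 and 44 of all genes. With the Eif2s3y term the averages were 2.28 for Slc16a1 (adjusted p = 0.180, range 0.180 to 0.794), 0.85 for Bdh2, 0.73 for Oxct1, 0.33 for Acat1 and 0.09 for Bdh1, and Slc16a1 was called in none of the alternatives run.

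PFD and untreated ask the same of the antifibrotic drug. Slc16a1 was at 424 and 340 CPM against 281, 71.1 and 209, and Oxct1 at 1358 and 1334 against 1258, 262 and 1317; both PFD libraries lay above all untreated ones for both genes. The log2 differences were 1.03 for Slc16a1 (SE 0.482, 95% interval 0.00 to 2.06, adjusted p = 0.786), 0.51 for Oxct1, 0.46 for Acat1, 0.40 for Bdh1 and 0.27 for Bdh2. The edgeR test called 0 of the 5 members and 0.00807% of all genes (1 rise; from 0 to 2 genes on leaving out 1 library); 1 member reached an unadjusted p of 0.05, Slc16a1, and DESeq2 and voom called 0 members, with 4 and 5 of all genes. Without untreated 2 the differences were 0.64 for Slc16a1, 0.06 for Oxct1, 0.04 for Acat1, -0.13 for Bdh1 and -0.06 for Bdh2, so this library carried most of the enzymes' values. Endothelial markers (1971 and 2113 against 2471 to 2914 CPM) and those of smooth muscle and pericytes (917 and 1044 against 1196 to 1465) were lower in PFD without overlap and erythroid markers higher (712 and 858 against 186 to 306), and their part was not tested.

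Where PFD was added to EMPA, that is for EMPA + PFD against EMPA, edgeR called no member. Oxct1 was at 1501, 1593 and 1407 CPM against 569 and 753, Acat1 at 1070, 1228 and 1105 against 749 and 546, Bdh1 at 25.8, 55.1 and 30.6 against 13.6 and 20.6, and Slc16a1 at 413, 793 and 609 against 276 and 408. For each of these 4 members, 3 of 3 libraries with both drugs lay above both EMPA libraries. The share of all genes separated in this way was not counted. The log2 differences were 1.18 for Oxct1 (SE 0.507, 95% interval 0.10 to 2.26, adjusted p = 0.132), 1.12 for Bdh1, 0.82 for Slc16a1, 0.81 for Acat1 and 0.45 for Bdh2. The edgeR test called 0 of the 5 members and 3.44% of all genes (268 rises, 158 falls); 1 member reached an unadjusted p of 0.05, Oxct1, DESeq2 called 0 members and 733 of all genes, and voom called 834 of all genes and 1 member, Oxct1 (1.17, adjusted p = 0.0182). Oxct1 was also called with only these 5 libraries in the fit (1.19, adjusted p = 0.0224) and without untreated 2 (1.18, adjusted p = 0.0210), in a range of 0.0182 to 0.392, and of all genes 76 and 7 were called without EMPA 1 or 2, and 77 and 129 without EMPA + PFD 2 or 3, against 426. Hadh (2.52), Echs1 (2.37), Ogdh (2.28), Cs (2.08), Hk2 (2.03), Esrrb (2.61) and Ppargc1a (1.92) rose, and the lists had 3 of 18 genes of fatty acid oxidation and 4 of 17 of the citric acid cycle called, all upward. Cardiomyocyte markers (62404 to 92736 against 45722 and 34977 CPM) were higher with both drugs, and those of endothelial cells (1530 to 1740 against 2549 and 1971), smooth muscle and pericytes (803 to 948 against 1102 and 2953), leukocytes (212 to 288 against 445 and 476), adipocytes (1184 to 1351 against 2564 and 1667) and atrial cardiomyocytes (86.1 to 381 against 698 and 5171) lower, all without overlap, and their part was not tested. RT1-CE16 separated the groups as the drug did, and these cannot be told apart. The interaction of EMPA and PFD, the effect of both less the sum of each alone, ran from -0.21 for Slc16a1 to 0.72 for Bdh1. On leaving out 1 library it ran from -0.63 to 0.18 for Slc16a1 and from 0.30 to 1.24 for Bdh1. That of Bdh2 (0.18) also turned sign, with a range of -0.07 to 0.56. For the interaction edgeR called 0 of the 5 members and 0.00807% of all genes, and 0 members reached an unadjusted p of 0.05. DESeq2 and voom called 0 members, with 38 and 63 of all genes. In place of the 1 gene edgeR called, it called 10 without EMPA 2, 7 without EMPA + PFD 2, 4 without EMPA + PFD 1, and 3 without HFpEF 1 or 3.

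EMPA + PFD and control 9w, in which both Eif2s3y and RT1-CE16 were present, set treated diseased hearts beside controls of the same week. Slc16a1 was at 413, 793 and 609 CPM against 165, 155 and 178, Acat1 at 1070, 1228 and 1105 against 439, 417 and 483, Oxct1 at 1501, 1593 and 1407 against 513, 535 and 732, and Bdh2 at 22.5, 24.1 and 17.6 against 9.14, 12.5 and 11.9. In all 4 the 3 treated libraries lay above the 3 controls, and the share of all genes that did so was not counted. Slc16a1 rose by 1.87 (SE 0.451, 95% interval 0.90 to 2.83, adjusted p = 0.00676), Acat1 by 1.35 (SE 0.436, adjusted p = 0.0282) and Oxct1 by 1.34 (SE 0.444, adjusted p = 0.0312). Bdh2 (0.93, adjusted p = 0.0669) and Bdh1 (0.12) did not pass in edgeR, and voom called Bdh2 too (1.03, adjusted p = 0.00173). Bdh1 turned sign without control 9w 1 or 3 (-0.01, -0.07) or EMPA + PFD 2 (-0.27), and without the libraries high in Myl4 (-0.42). The edgeR test called 3 of the 5 members and 12.1% of all genes (886 rises, 609 falls; 973 in all without EMPA + PFD 2), with medians of 1.34 and -0.08. It shares its control libraries with the untreated comparison and its treated ones with the drug comparisons.

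Genes of the other fuel pathways rose in the same comparison. Of 18 genes of fatty acid oxidation 17 rose (median 2.08; Hadh 3.63, Hadhb 3.30), of 17 of the citric acid cycle 13 (median 1.55; Ogdh 2.71, Cs 2.61), and of 15 of glycolysis and lactate 6 (median 0.98; Hk2 2.42, Tpi1 1.91). Acot1 and Acot2, each up by 3.61, were among the PPAR-alpha targets that rose. Among the other listed ketone genes Hmgcll1 fell (-1.34). Of 14 regulators 4 rose (median 0.74; Esrrb 2.41, Esrrg 1.73). Cardiomyocyte markers were also higher in all 3 treated libraries, 62404 to 92736 CPM against 36107 to 43493, and those of endothelial cells (1530 to 1740 against 2759 to 3146), smooth muscle and pericytes (803 to 948 against 1010 to 1120) and erythroid cells (143 to 481 against 1181 to 1833) lower, and their part was not tested. The call of Oxct1 was lost without any 1 of control 9w 1 (1.24, adjusted p = 0.0987) and 2 (1.27, 0.0969) and EMPA + PFD 1 (1.35, 0.0517), 2 (1.30, 0.0743) and 3 (1.40, 0.0512), and that of Acat1 without control 9w 1 (1.33, 0.0778), 2 (1.30, 0.0866) or 3 (1.40, 0.0555), EMPA + PFD 2 (1.29, 0.0721) or 3 (1.38, 0.0512), or the libraries high in Myl4 (1.44, 0.0549); over the alternatives adjusted p ranged from 0.000122 to 0.0987. Slc16a1 was called in every alternative run (1.63 to 2.09, adjusted p up to 0.0340).

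**Figure D2:**
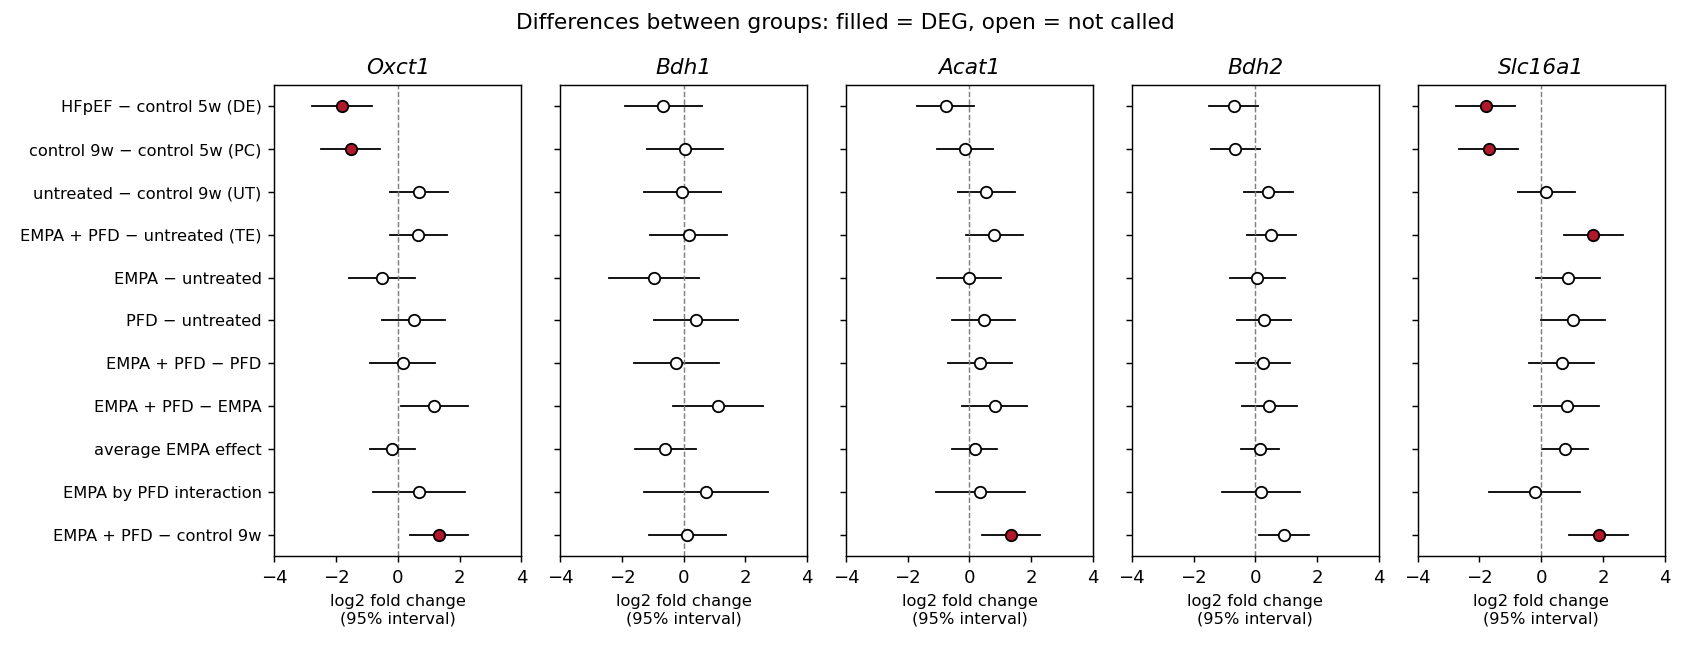
Log2 fold change of each ketone body gene (x axis) in 11 comparisons (y axis), with 95% intervals; filled points passed an adjusted p of 0.05 and a 2-fold change. Slc16a1 and Oxct1 are filled to the left of 0 for HFpEF and control 9w against control 5w, Slc16a1 is filled to the right for EMPA + PFD against untreated (1.69), and no point is filled for EMPA or PFD alone.

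Within a library, the ratio of a pair of members does not depend on depth, and such ratios were looked at after the data were seen and were not tested. Slc16a1 over Oxct1 was 0.485 and 0.542 in EMPA and 0.275, 0.498 and 0.433 in EMPA + PFD, against 0.224, 0.272 and 0.159 in untreated and 0.312 and 0.255 in PFD. In control 5w it was 0.271, 0.345 and 0.339, in HFpEF 0.343, 0.224 and 0.337, and in control 9w 0.321, 0.290 and 0.243. The 4 highest of the 19 ratios belonged to libraries given EMPA, and EMPA + PFD 1 lay among the rest. At week 9 the libraries given EMPA also stood apart in Eif2s3y from the L-NAME libraries without EMPA. Slc16a1 over Acat1 had another order, and was highest in control 5w (0.760 to 1.48) and HFpEF 1 (0.782). That ratio was 0.369 and 0.748 in EMPA, 0.386 to 0.646 in EMPA + PFD, 0.522 and 0.347 in PFD, and 0.257 to 0.332 in untreated. Oxct1 over Acat1 was 2.81, 4.30 and 3.98 in control 5w, and 0.760 to 2.28 in the 16 other libraries. These enzymes of the pathway thus stood in another proportion in control 5w than in the other groups, and 2 of its libraries were those rich in fibroblast markers.

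Slc16a1 was also set against the cardiomyocyte markers of the same library. Per 1000 CPM of those markers it was at 6.62, 8.55 and 8.09 CPM in EMPA + PFD and at 4.23, 3.37 and 3.66 in untreated, with no overlap. For Acat1 the same quantity was 17.1, 13.2 and 14.7 against 14.0, 10.1 and 14.2, and for Oxct1 24.0, 17.2 and 18.7 against 18.9, 12.4 and 23.0; both overlapped. In the other groups Slc16a1 per 1000 CPM of markers was 6.04 and 11.7 in EMPA, 7.25 and 4.82 in PFD, 4.57, 3.57 and 4.66 in control 9w, 8.78, 19.02 and 17.1 in control 5w, and 13.9, 2.80 and 7.64 in HFpEF. In this quantity HFpEF and control 5w overlapped, which they did not in CPM, while control 9w lay below control 5w. These ratios are a description and were not tested.

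**Figure D3:**
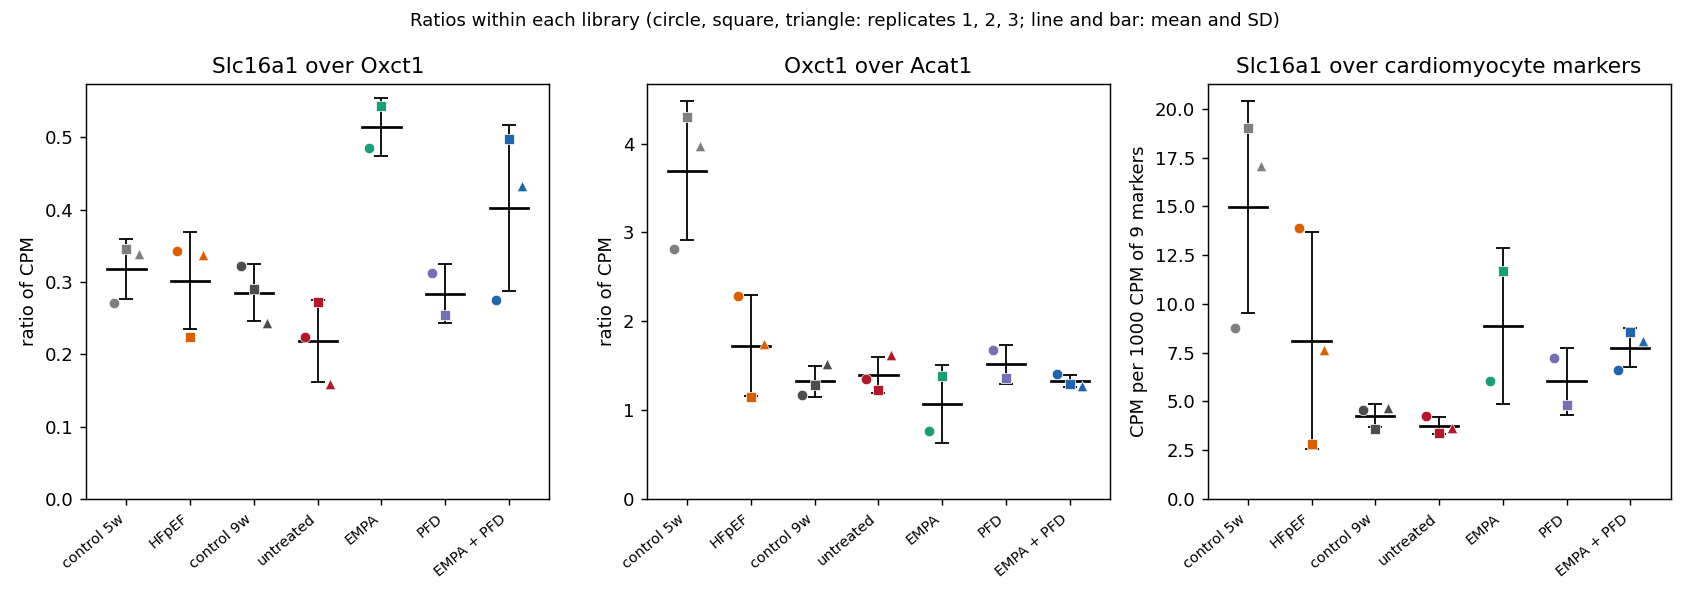
Ratios within each library for the 7 groups (x axis): Slc16a1 over Oxct1, Oxct1 over Acat1 (both of CPM), and Slc16a1 CPM per 1000 CPM of the 9 cardiomyocyte markers, with 1 point per library, a line at the mean and a bar for the SD. The EMPA libraries have the highest mean of Slc16a1 over Oxct1, at 0.485 and 0.542, and control 5w lies above the other groups for Oxct1 over Acat1.

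Across the 19 libraries the members moved together to different degrees, given here as a description over libraries that share groups, normalization and the library differences above. Oxct1 and Slc16a1 were the closest pair in log2 CPM (Pearson r 0.896, Spearman rho 0.933, n = 19; r 0.865 without untreated 2), and Bdh1 and Slc16a1 the least close (r 0.598, rho 0.437; r 0.421 without untreated 2). Acat1 followed the summed cardiomyocyte markers most closely (r 0.957, rho 0.956; r 0.957 without untreated 2), ahead of Bdh2 (r 0.797), Oxct1 (0.695), Bdh1 (0.644) and Slc16a1 (0.613). The tested genes most like each member differed between members. For Oxct1 they were Kpna2 (r 0.974), Tmod1 (0.971) and Actc1 (0.966), the latter pair being parts of the thin filament of muscle, and for Slc16a1 Pdlim5 (0.963), Lypla1 (0.959) and Klhdc8b (0.952). For Acat1 they were Uqcrfs1 (0.985), a subunit of respiratory complex III, Timm21 (0.984), of the mitochondrial import machinery, and Ttc39c (0.984). Bdh2 was most like Dars (0.947), Yif1a (0.943) and Emc6 (0.938), and Bdh1, with lower values, most like Myl3 (0.828), Tssk1b (0.809) and Ddx28 (0.808). By Spearman's rho, 2 of these 3 recurred for Oxct1 and for Slc16a1 and none for the other members.

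The members' promoters, from 250 bases before to 50 after the start, were all 5 found in RefSeq's table for GRCr8. None held the nuclear receptor half-site AGGTCA, its direct repeat AGGTCANAGGTCA (DR1, of which the half-site is a part) or the ERR site TCAAGGTCA (which holds the half-site too) on either strand; of 33469 promoters of 300 bases, 16.2%, 0.0538% and 0.433% held them. No match says only that these letters are not in this window. CpG pairs, a description chosen after the sequences were seen, differed between the promoters: there were 39 in Slc16a1, 29 in Oxct1, 21 in Bdh1, 16 in Acat1 and 11 in Bdh2, where the median of all promoters was 7, with GC contents of 72.7%, 69.0%, 62.0%, 60.0% and 49.0% against a median of 51.7%. In the same assembly Bdh1 overlaps the non-coding RNA gene LOC134481093 and Acat1 the pseudogene LOC108351709, and the other 3 overlap no gene; the counts were made on rn6. The promoters of Oxct1 (chr2:54963714-54964013, plus strand) and Slc16a1 (chr2:194812410-194812709, plus strand) are shown because these genes fell together in HFpEF and in control 9w against control 5w, with CpG pairs in capitals.
Oxct1: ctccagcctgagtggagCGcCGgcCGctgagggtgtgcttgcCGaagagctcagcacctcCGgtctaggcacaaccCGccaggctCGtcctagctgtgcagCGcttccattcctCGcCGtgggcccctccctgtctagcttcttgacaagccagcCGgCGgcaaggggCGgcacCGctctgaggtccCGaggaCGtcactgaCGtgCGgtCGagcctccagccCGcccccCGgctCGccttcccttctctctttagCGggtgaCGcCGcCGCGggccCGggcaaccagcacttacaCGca
Slc16a1: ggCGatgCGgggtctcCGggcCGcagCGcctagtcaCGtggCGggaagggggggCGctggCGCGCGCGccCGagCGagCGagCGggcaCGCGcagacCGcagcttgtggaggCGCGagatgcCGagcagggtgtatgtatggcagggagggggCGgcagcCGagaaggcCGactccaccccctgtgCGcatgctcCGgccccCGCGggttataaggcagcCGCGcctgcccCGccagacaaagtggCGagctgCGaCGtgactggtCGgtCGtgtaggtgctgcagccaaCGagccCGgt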

How the data were processed

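Heart RNA of 19 rats was measured as counts per gene, which the authors made by trimming with Trim Galore, aligning to rn6 with HISAT2 and counting with HTSeq, and deposited as raw counts. Libraries were grouped by their labels. In R 4.3.3, edgeR 4.0.16 normalized them by TMM, kept 12388 genes with filterByExpr and fitted 1 quasi-likelihood model of the 7 groups, with Benjamini-Hochberg adjustment over all tested genes in each comparison. CPM are TMM-normalized, errors are SD, and 95% intervals come from the fitted log2 fold change and its SE. The pipeline was tested on simulated data.

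The members, gene lists and rules were chosen with earlier results of these data known. Named were the 5 members, of each pathway list described in a comparison the called genes that moved furthest (2 up, 2 down), the 3 genes most correlated with each member, and Eif2s3y, RT1-CE16 and Myl4, except that results on items withheld for evaluation were left out. Alternatives were other normalizations, filters and fits, DESeq2 1.42.0, limma 3.58.1 voom with quality weights, a replicate block, an Eif2s3y term and leaving out libraries. Gene lengths and GC content of the counted models were not available, so levels of the members were not compared with each other.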

Additional observations from a re-analysis of the deposited data

Results flagged for a closer look

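The difference between diseased and control hearts was not the same at weeks 5 and 9 for 2 of the 5 genes, by a test of that difference which was added after the data were seen and which called 12% of all genes (1489; 877 without untreated 1, 975 without control 9w 2 and 2241 without untreated 2). For Oxct1, untreated less control 9w minus HFpEF less control 5w was 2.48 on the log2 scale (SE 0.626, adjusted p = 0.0147 in edgeR), with 433, 309 and 726 CPM in HFpEF and 2138, 1462 and 1542 in control 5w, against 1258, 262 and 1317 in untreated and 513, 535 and 732 in control 9w. For Slc16a1 it was 1.97 (SE 0.624, adjusted p = 0.0383), with 148, 69.1 and 245 CPM against 579, 505 and 523 at week 5, and 281, 71.1 and 209 against 165, 155 and 178 at week 9. Oxct1 was called in every alternative run (2.16 to 3.15), and Slc16a1 ran from 1.55 to 3.13 over the alternatives. Slc16a1 was not called without any 1 of 10 libraries (1.55 to 2.02, adjusted p = 0.0539 to 0.119), with only the compared libraries in the fit (1.97, adjusted p = 0.0709), with a term for the Eif2s3y split (1.62, adjusted p = 0.0704) or without control 5w 2 and 3 (2.09, adjusted p = 0.0777), and was 2.36 without untreated 2.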

How the results depend on the processing

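Of 392 counts of members called under 32 alternatives, 358 were within 1.5 times the count reported, 28 were lower and 6 higher. The 358 include every count for EMPA alone, PFD alone, adding EMPA to PFD, the average EMPA effect and the interaction. In these the count was 0 throughout. Many alternatives also left out a library outside the groups compared. Of 1810 log2 fold changes of members, 1712 kept direction and side of the threshold, 36 lost a call, 9 gained one and 53 without a call changed sign, and no called value did. With only the compared libraries in the fit, the count was 1 for HFpEF (reported 2), 0 for EMPA + PFD against untreated (reported 1), 1 for adding PFD to EMPA (reported 0) and 1 for the difference between weeks (reported 2). With voom it was 1 for untreated against control 9w and 1 for adding PFD to EMPA (reported 0 each), and 4 over all groups and for EMPA + PFD against control 9w (reported 3 each). Over all groups voom passed 11258 of all tested genes, against 6227 in edgeR. The Eif2s3y term left 1 for the difference between weeks. Without the libraries high in Myl4, EMPA + PFD against untreated had 0. Without control 5w 2 and 3, the older controls had 0 (reported 2) and the difference between weeks 1. Leaving out the libraries high in Myl4, control 5w 2 and 3, or HFpEF 1 and 3 was chosen after seeing the data. The causes were not tested, beyond the smaller number of libraries in such fits.

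Leaving out 1 library at a time gave 2 to 4 over all groups, 1 to 2 for HFpEF and for the older controls, 0 to 1 for untreated, for EMPA + PFD against untreated and for adding PFD to EMPA, 1 to 3 for EMPA + PFD against control 9w, 1 to 4 for the difference between weeks, and 0 for the other comparisons. Where an EMPA or PFD library, control 5w 2 and 3, or HFpEF 1 and 3 were left out, the lone library left was assumed to vary like the other groups. The same held for control 9w 2, the lone library of its group once those high in Myl4 were left out. With the replicate block, Slc16a1 in EMPA + PFD against untreated was at 1.79 (adjusted p = 0.0368, range 0.00225 to 0.146), and counts of members were as reported; replicate numbers did not pair libraries (r of 52 same-numbered pairs from -0.53 to 0.49, median -0.07). Upper quartile normalization shifted the median gene by -0.09 in EMPA + PFD against untreated and moved the share of called genes that rose from 61.3% to 46.6%. The lists of 3 most similar genes kept 0 to 2 genes under Spearman's rho and 0 to 2 without untreated 2. At these depths the 55 to 479 counts of Bdh1 limit its precision less than the spread between hearts.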

Other observations

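Bsg codes for basigin, the protein that escorts MCT1 to the membrane. It was at 1001, 662 and 652 CPM in control 5w, 353, 326 and 487 in HFpEF, 416, 404 and 447 in control 9w and 762, 305 and 582 in untreated. In the treated groups it was at 481 and 453 CPM in EMPA, 718 and 707 in PFD, and 723, 726 and 642 in EMPA + PFD. Of the comparisons described, Bsg passed the edgeR test in the difference between the weeks (1.37, adjusted p = 0.0197). That comparison was added after the data were seen and called 12% of all genes. Slc16a1 passed there too, a call that was lost in several alternatives. A link between Bsg and Slc16a1 was not tested.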
